A study of Homo sapiens with 12 samples.

Results

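ABC drug efflux transporters are membrane pumps that use ATP to move drugs and conjugated compounds out of cells. Here 10 of them were followed through RNA sequencing of SKOV3 and SKOV3/DDP cells: ABCB1, ABCB4, ABCG2, ABCC1, ABCC2, ABCC3, ABCC4, ABCC5, ABCC6 and ABCC10. They were taken by gene symbol, and all 10 were listed among the 46350 named genes of every count file. SKOV3 is an established human line of epithelial ovarian cancer that the labels call cisplatin sensitive. SKOV3/DDP is labelled as the cisplatin-resistant line, and the study's methods describe it as a stable line derived from SKOV3, so each line is a single model. Cells of each line were left untreated or were given paeonol (PAE), a plant phenol. This gave 4 groups of 3 libraries, called SKOV3, SKOV3_PAE, SKOV3/DDP and SKOV3/DDP_PAE below. The PAE dose, the treatment time and any treatment of the untreated cells are not given in the sources used here.

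ABCB1 (P-glycoprotein, MDR1) exports bulky hydrophobic drugs such as taxanes and anthracyclines, and ABCG2 (BCRP) exports topoisomerase poisons and other planar drugs. The ABCC members are multidrug resistance-associated proteins, which mainly carry organic anions, among them glutathione and glucuronide conjugates, and in the case of ABCC4 and ABCC5 also nucleotides. ABCB4 belongs to the same subfamily as ABCB1 but moves phosphatidylcholine across membranes, mainly in liver. High ABCB1 is a classic feature of tumour lines selected with hydrophobic drugs, whereas cisplatin is not a typical P-glycoprotein substrate.

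The libraries held between 14610008 and 18263479 counts. Levels are given as CPM, read counts scaled to a common library size with TMM factors over the genes tested. The 3 untreated SKOV3 libraries stood apart from the other 9. In them, a gene's deviation from its mean over the 12 libraries rose with its GC content (Spearman correlation across genes 0.663 to 0.669, against −0.532 to −0.325 in the other 9), and 17951 to 18240 genes had a count, against 21469 to 23194. Mitochondrial genes held 1.29% to 2.44% of counts in the SKOV3 and SKOV3_PAE libraries, and 3.93% to 11.2% in those of SKOV3/DDP and SKOV3/DDP_PAE. By a chi-square over genes, SKOV3/DDP replicate 2 lay farther from replicates 1 and 3 (102 and 93.6 per degree of freedom) than these from each other (16.7), as did SKOV3/DDP_PAE replicate 3 (70.1 and 89.8, against 22.6). Some markers went against the labels. CDKN2A, which SKOV3 is known for having lost, was at 1545 CPM in untreated SKOV3 and at 0.0631 CPM in SKOV3/DDP, whereas ERBB2, known to be high in SKOV3, was at 306 CPM in SKOV3 and 96.5 CPM in SKOV3/DDP. All 6 epithelial markers had a mean over 1 CPM in both untreated lines. In SKOV3/DDP, 5 of them (EPCAM, KRT8, KRT18, KRT19 and CDH1) were higher and 1, KRT7, was lower (1.22 against 3607 CPM), each at an adjusted p under 0.05 (edgeR). Of all genes tested, 45.8% were higher and 36.0% lower in this comparison, and the marker values were not corrected for GC content. The list summed to between 10644 and 12866 CPM in SKOV3/DDP and 8068 to 8854 CPM in SKOV3. In SKOV3/DDP, the ovarian marker PAX8 was at 4.13 CPM against 29.7 CPM, and the 5 intestinal markers CDX1, CDX2, VIL1, CDH17 and LGALS4 summed to between 531 and 576 CPM, against 0.254 to 0.887 CPM in SKOV3. SOX17, another ovarian marker, was at 0 in every library, and leukocyte markers were at or near 0 (at most 0.639 CPM summed over 4 genes). Group names below are those of the labels.

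Promoter sequence from RefSeq (GRCh38.p14) was found for 7 of the 10 genes, in 14 windows of 250 bases before a listed start. There was no entry for ABCC1, ABCC3 and ABCB4. ABCB1 is shown because it had the widest gap between the lines, ABCG2 and ABCC4 because they were also higher in SKOV3/DDP, and ABCC10 because it went the other way. The runs below are the parts of these windows outside any GENCODE 29 exon, written 5′ to 3′. Capitals mark a CCAAT box (CCAAT), a GC box (GGGCGG) or the core of an antioxidant response element (TGACNNNGC), searched on both strands.

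ABCB1, upstream start, chr7:87713324-87713545, minus strand: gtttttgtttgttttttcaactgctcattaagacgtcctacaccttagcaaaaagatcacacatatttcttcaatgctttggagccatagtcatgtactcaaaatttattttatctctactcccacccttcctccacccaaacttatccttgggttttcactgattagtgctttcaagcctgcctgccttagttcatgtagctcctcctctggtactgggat

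ABCB1, downstream start, chr7:87601079-87601134, minus strand: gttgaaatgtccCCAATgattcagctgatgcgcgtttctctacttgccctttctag

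ABCG2, chr4:88159025-88159159, minus strand: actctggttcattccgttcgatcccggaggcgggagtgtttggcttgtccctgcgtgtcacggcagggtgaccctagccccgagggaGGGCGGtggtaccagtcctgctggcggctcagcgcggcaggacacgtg

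ABCC4, chr13:95301476-95301701, minus strand: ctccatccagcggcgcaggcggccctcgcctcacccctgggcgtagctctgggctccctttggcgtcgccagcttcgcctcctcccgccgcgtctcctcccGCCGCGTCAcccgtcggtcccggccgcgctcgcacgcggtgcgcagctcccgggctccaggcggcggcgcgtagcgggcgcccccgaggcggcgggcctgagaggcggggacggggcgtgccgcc

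ABCC10, chr6:43427758-43427855, plus strand: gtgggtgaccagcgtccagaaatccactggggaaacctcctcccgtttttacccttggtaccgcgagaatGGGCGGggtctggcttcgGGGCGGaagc

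The 2 listed ABCB1 starts lie 112411 bases apart. The full window before the downstream start held 2 CCAAT boxes and no GC box, with 12 CG dinucleotides and 55.6% GC. The window before the upstream start held neither motif, with 1 CG dinucleotide and 39.2% GC. Across 34943 promoter windows of the same length, 32.0% held a CCAAT box, 42.5% a GC box and 10.9% the antioxidant response core, and the median window had 11 CG dinucleotides. ABCG2 has 5 listed windows, of which 2 overlapping ones hold GC boxes and 3 hold none, with 2 to 32 CG dinucleotides. The run shown is the longer of those from the 2 with GC boxes, and its window held 2 GC boxes, 1 of them inside the printed run, with 27 CG dinucleotides. The single ABCC4 window held the antioxidant response core once and 42 CG dinucleotides. Of the 2 ABCC10 windows, the one shown held 3 GC boxes, and the other held no GC box and the antioxidant response core once. Gene counts do not say which start was used, and a motif match is a description of the sequence only.

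Scaled by gene length, the make-up of the 10 pumps differed between the lines. In CPM per kb, ABCC3 was the highest in SKOV3 (20.6 ± 1.76, SD, n = 3) and in SKOV3_PAE (21.1 ± 1.92), where it made up 66.1% and 70.5% of the summed level. In SKOV3/DDP, ABCC3 (20.1 ± 7.52 CPM per kb) and ABCB1 (13.8 ± 5.30 CPM per kb) had overlapping ranges, with ABCC3 above ABCB1 within each library. In SKOV3/DDP_PAE, ABCB1 was the highest at 17.4 ± 4.14 CPM per kb, apart from ABCC3 at 8.60 ± 1.008 CPM per kb, and held 42.2% of the summed level. ABCC10 came next to ABCC3 in SKOV3 (7.07 ± 0.695 CPM per kb), ABCC5 in SKOV3_PAE (3.11 ± 0.576 CPM per kb) and ABCC4 below ABCB1 in SKOV3/DDP (5.88 ± 1.10 CPM per kb). There the range of ABCC4 overlapped that of ABCG2, with ABCC4 above ABCG2 within each library. At the other end, ABCC2, ABCC6 and ABCB4 were each below 0.4 CPM per kb in every group mean. The summed level of the 10 genes was 28.6 to 32.5 CPM per kb in the SKOV3 libraries, 28.8 to 31.9 in SKOV3_PAE, 41.0 to 67.0 in SKOV3/DDP and 38.9 to 45.3 in SKOV3/DDP_PAE. Since these are bulk RNA libraries, fewer cells with a transcript and less transcript per cell cannot be told apart.

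**Figure D1:**
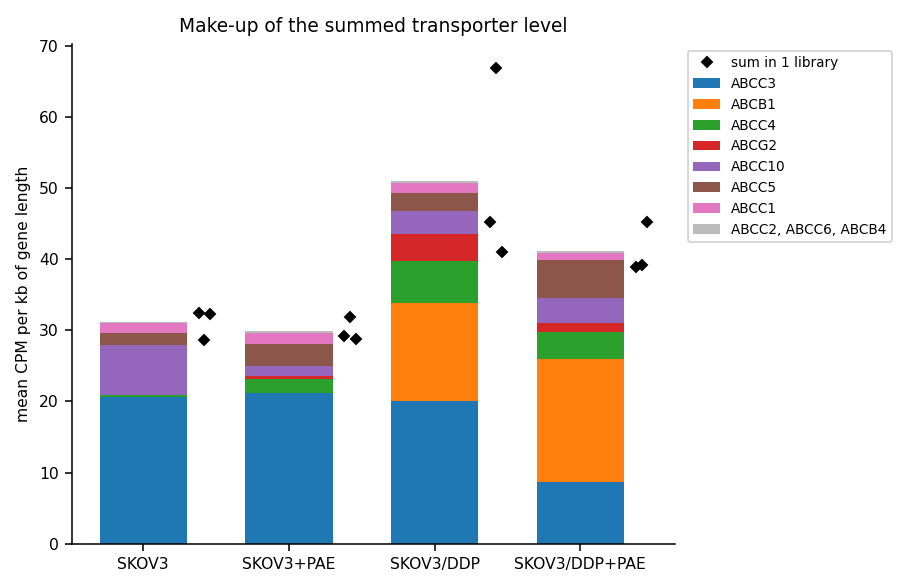
Stacked bars give the mean CPM per kb of gene length of each transporter in the 4 groups (n = 3 libraries each), and diamonds give the summed level in each single library. ABCC3 makes up 66.1% of the sum in SKOV3, whereas ABCB1 is absent there and holds 27.0% in SKOV3/DDP and 42.2% in SKOV3/DDP_PAE. Levels are scaled with TMM factors, and those of untreated SKOV3 beside the other groups depend on this scaling.

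The 5 comparisons of the design were fitted with edgeR's quasi-likelihood test over 17133 genes, among them 9 of the transporters. ABCB4 did not pass the filter on low counts. Between the untreated lines, 7 of 9 transporters had an adjusted p under 0.05, where 81.8% of all genes tested did. Of these, 6 were higher and 1 lower in SKOV3/DDP, against 45.8% and 36.0% of all genes. With PAE in both lines, 5 of 9 were called, 4 of them higher and 1 lower in SKOV3/DDP_PAE, against 54.5% of all genes in either direction, 27.5% higher and 27.1% lower. PAE changed 5 of 9 in SKOV3, 4 upward and 1 downward, against 75.3% of all genes, 42.6% upward and 32.7% downward. In SKOV3/DDP, PAE changed 3 of 9, 1 upward and 2 downward, against 26.4% of all genes, 11.8% upward and 14.7% downward. The effect of PAE differed between the lines for 5 of 9, with 1 higher and 4 lower in SKOV3/DDP, against 62.9% of all genes, 25.5% higher and 37.4% lower. Under the study's own criteria, an unadjusted p under 0.05 with an absolute log2 fold change over 2, the counts in the same order were 5, 2, 4, 0 and 4 of 9, against 57.3%, 24.6%, 50.2%, 7.11% and 45.5% of all genes. These shares lay near those of all genes, so the description below is of single genes. The median log2 fold change of the 9 was 2.36 between the untreated lines, 0.97 between the lines after PAE, 0.95 for PAE in SKOV3 and −0.61 for PAE in SKOV3/DDP, beside medians of 0.54, 0.06, 0.48 and 0.00 over all genes. Scaling by library size alone, without TMM factors, moved the median of all genes to 1.23, 0.04, 1.36 and 0.16.

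Each comparison that includes untreated SKOV3 carries the GC pattern of those libraries. For PAE in SKOV3, the log2 fold changes of the transporters ran from 3.60 for ABCG2 (41.2% GC) to −2.38 for ABCC10 (58.7% GC). Genes within 1 percentage point of the same GC content had median log2 fold changes of 2.85 and −1.79. In SKOV3/DDP, the medians of like GC lay between −0.17 and 0.12. A second set of values, in which each library was first corrected for a spline on GC content and length, is therefore given beside the fitted ones and called trend removed. With the trend removed, 2 of 9 were called for PAE in SKOV3 and 3 of 9 for the difference between the lines. The share of all genes called in that fit is not reported here, so these counts cannot be read as particular to the transporters.

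**Figure D2:**
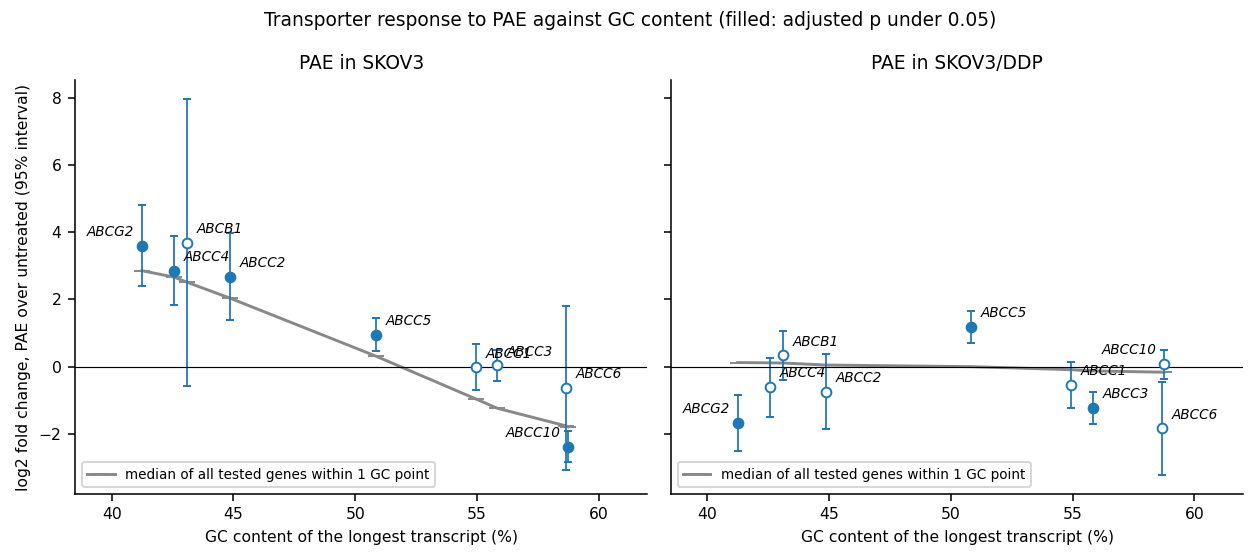
The log2 fold change of each of the 9 tested transporters (95% interval, n = 3 libraries per group) is plotted against the GC content of its longest transcript, for PAE in SKOV3 (left) and in SKOV3/DDP (right). Filled points have an adjusted p under 0.05, and the grey line joins the medians of all tested genes within 1 percentage point of GC, which run from 2.85 to −1.79 on the left and stay between −0.17 and 0.12 on the right.

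ABCB1, the multidrug pump P-glycoprotein (Gene ID 5243, chr7:87503017-87713295 on GRCh38, minus strand), was present in SKOV3/DDP and at 0 in untreated SKOV3. All 3 untreated SKOV3 libraries had 0 counts of it, and the SKOV3_PAE libraries had 0, 5 and 0. In SKOV3/DDP the counts were 1346, 1744 and 807, or 77.6, 110 and 49.4 CPM. In SKOV3/DDP_PAE they were 1846, 1739 and 2299, or 90.5, 81.7 and 126 CPM. No library of either line overlapped with the other line. Against a floor of 3 counts over the 3 libraries, which equals 0.0862 CPM, untreated SKOV3/DDP was at least 913-fold higher than SKOV3 (adjusted p = 1.67e-08, edgeR). After PAE the ratio of the lines was 1099 (95% counting interval 471 to 3387, adjusted p = 3.89e-08), and the 5 counts below it all came from SKOV3_PAE replicate 2. Without that library the SKOV3_PAE group is at 0, and the fitted log2 fold change moves from 10.01 to 13.68. Removing the GC and length trend changed neither call.

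PAE left no called difference in ABCB1 in SKOV3/DDP. The mean went from 79.0 ± 30.4 to 99.6 ± 23.7 CPM (SD, n = 3), a log2 fold change of 0.33 (SE 0.37, 95% interval −0.40 to 1.06, adjusted p = 0.549, edgeR). The libraries of the 2 groups overlapped, and the interval allows a change of up to about 1 on the log2 scale. For PAE in SKOV3, the 5 counts of 1 library gave no called difference (adjusted p = 0.140, edgeR). The 5 intestinal markers moved with ABCB1 between the lines: 5 of 5 had a mean over 1 CPM in both SKOV3/DDP groups and 0 of 5 in the SKOV3 groups. Their summed level was 0.158 to 0.406 CPM in SKOV3_PAE, and CDX1, CDX2, VIL1 and CDH17 were at 0 in untreated SKOV3. Within SKOV3/DDP they did not move with ABCB1: PAE lowered 5 of 5 (adjusted p under 0.05, edgeR), against 14.7% of all genes. Their sum went from between 531 and 576 CPM to between 163 and 249 CPM. Their part in the difference between the lines was not tested.

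Counts of the other listed member of the subfamily on chromosome 7 were low in every group. ABCB4, the phosphatidylcholine translocator (Gene ID 5244, chr7:87398988-87476722, minus strand), lies 26.3 kb from ABCB1 and had 28 counts over all 12 libraries. These were 0 in SKOV3, 5 in SKOV3_PAE, 11 in SKOV3/DDP and 12 in SKOV3/DDP_PAE. Against the same floor the ratio of the untreated lines was 2.58, which leaves out the counting error of the 11 SKOV3/DDP counts. In a fit without the filter on low counts, the log2 fold change between the untreated lines was 4.91 (SE 2.01, adjusted p = 0.0311, edgeR), and the other 4 comparisons were not called. Its 3′ end overlaps CROT, a peroxisomal acyltransferase gene on the opposite strand, which had 1578 counts, nearly all of them in SKOV3 and SKOV3_PAE. The library kit does not mark strand and the counting setting is not given in the sources used here, so reads on shared bases cannot be assigned.

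**Figure D3:**
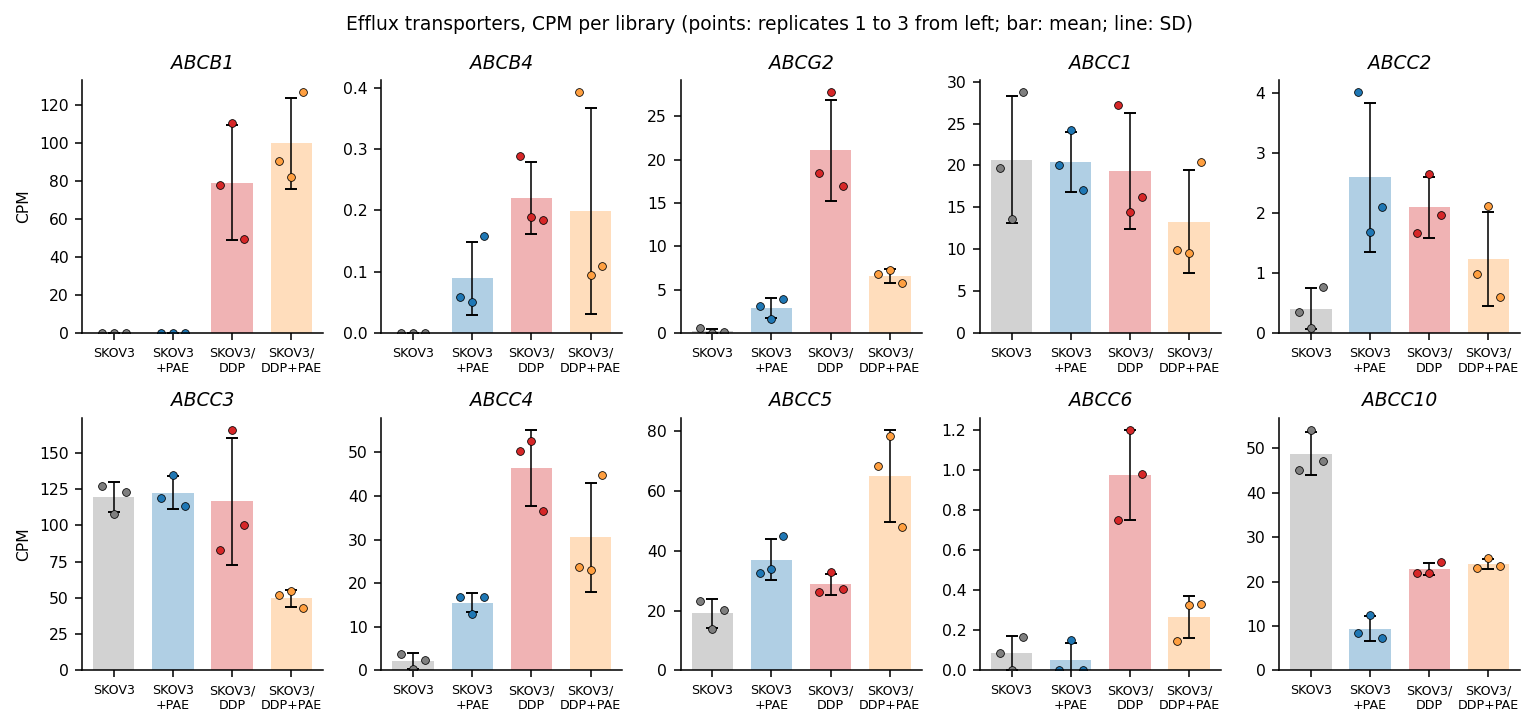
Points give the CPM of each library (replicates 1 to 3 from left to right), bars the group mean and lines the SD for the 10 transporters in SKOV3, SKOV3_PAE, SKOV3/DDP and SKOV3/DDP_PAE, each panel on its own axis from 0. ABCB1 is seen at 49.4 to 126 CPM in the 6 SKOV3/DDP libraries and at 0 to 0.254 CPM in the 6 SKOV3 libraries.

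ABCG2, the breast cancer resistance protein (Gene ID 9429, chr4:88090264-88231626, minus strand), was higher in SKOV3/DDP and fell there under PAE. The SKOV3 libraries held 6, 0 and 2 counts, or 0.532, 0 and 0.170 CPM, and the SKOV3_PAE libraries 3.08, 1.68 and 3.89 CPM. SKOV3/DDP had 18.5, 27.8 and 17.02 CPM. In SKOV3/DDP_PAE the values were 6.82, 7.24 and 5.72 CPM. No group overlapped with another, and the order was SKOV3, SKOV3_PAE, SKOV3/DDP_PAE and SKOV3/DDP from lowest to highest.

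ABCG2 was higher in untreated SKOV3/DDP than in SKOV3 by a log2 fold change of 6.47 (SE 0.61, adjusted p = 1.15e-07), and it was 3.92 (adjusted p = 2.31e-05) with the GC and length trend removed. Leaving out SKOV3 replicate 1, which held 6 of the 8 SKOV3 counts, raised the fitted value to 7.84. By counts, the lines differed 91.3-fold (46.2 to 212, 95% counting interval from 8 counts). In SKOV3/DDP, PAE lowered ABCG2 by a log2 fold change of −1.68 (SE 0.43, adjusted p = 0.0105), a 3.20-fold drop, and by −1.79 (adjusted p = 0.00352) with the trend removed. Epithelial markers moved the same way in these libraries: PAE lowered 5 of 5 intestinal and 4 of 6 epithelial markers, against 14.7% of all genes, and the summed level of the epithelial list went from between 10644 and 12866 CPM to between 2337 and 3347 CPM. That of the intestinal list went from between 531 and 576 CPM to between 163 and 249 CPM, and the part of either in the drop of ABCG2 was not tested. In SKOV3, the value for PAE was 3.60 (SE 0.61, adjusted p = 6.74e-05), but 0.91 (adjusted p = 0.229) with the trend removed, and 4.97 without SKOV3 replicate 1. The effect of PAE differed between the lines by −5.28 (SE 0.75, adjusted p = 2.01e-05), and by −2.70 (adjusted p = 0.00710) with the trend removed. Without SKOV3 replicate 1 that difference was −6.64. After PAE the lines differed by 1.19 (SE 0.44, adjusted p = 0.0304). That call was lost without SKOV3_PAE replicate 1 (1.23) or 2 (0.91) and without SKOV3/DDP_PAE replicate 1 (1.17) or 2 (1.12).

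ABCC1 (MRP1), ABCC2 (MRP2) and ABCC3 (MRP3) carry conjugated organic anions, ABCC2 at the apical and ABCC3 at the basolateral membrane of polarized cells. ABCC3 (Gene ID 8714, chr17:50634881-50692253, plus strand) was abundant in all groups and lower in SKOV3/DDP after PAE. Its levels were 127, 108 and 123 CPM in SKOV3 and 119, 135 and 114 CPM in SKOV3_PAE. Untreated SKOV3/DDP had 83.2, 166 and 100 CPM. SKOV3/DDP_PAE had 51.7, 54.6 and 43.3 CPM, below all other libraries. The drop under PAE in SKOV3/DDP was −1.22 on the log2 scale (SE 0.24, adjusted p = 0.00243), or 2.33-fold, and −1.09 (adjusted p = 0.00272) with the GC and length trend removed. As given beside ABCG2, PAE lowered 5 of 5 intestinal and 4 of 6 epithelial markers in the same libraries, against 14.7% of all genes. Their part in this drop was likewise not tested.

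After PAE, ABCC3 was lower in SKOV3/DDP than in SKOV3 by a log2 fold change of −1.30 (SE 0.24, adjusted p = 3.60e-04), and by −1.34 with the trend removed. The effect of PAE differed between the lines by −1.26 (SE 0.34, adjusted p = 0.00420). In SKOV3, PAE gave 0.04 (95% interval −0.43 to 0.50), and the untreated lines differed by −0.03 (95% interval −0.50 to 0.43). Both of these depended on scaling. With the trend removed they became 1.07 (adjusted p = 0.00157) and 0.82 (adjusted p = 0.00494), and with library size alone 0.92 and 0.63, each called.

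ABCC1 (Gene ID 4363, chr16:15949616-16143062, plus strand) was called in none of the 5 comparisons as fitted. Its group means were 20.7 ± 7.60, 20.4 ± 3.55, 19.3 ± 6.90 and 13.3 ± 6.17 CPM (SD, n = 3) in SKOV3, SKOV3_PAE, SKOV3/DDP and SKOV3/DDP_PAE, and its libraries overlapped in every comparison of 2 groups. After PAE the lines differed by −0.62 (95% interval −1.32 to 0.07, adjusted p = 0.150, edgeR). This value was called with the GC and length trend removed (−0.78, adjusted p = 0.0374) and without SKOV3/DDP_PAE replicate 3 (−1.07). With library size as the only scaling, PAE in SKOV3 gave 0.86 (adjusted p = 0.0411) in place of −0.02 and the difference of the PAE effect −1.26 (adjusted p = 0.0407) in place of −0.53, both called.

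ABCC2 (Gene ID 1244, chr10:99782602-99853741, plus strand) stayed below 4.1 CPM. The SKOV3 libraries held 4, 1 and 9 counts, or 0.355, 0.0852 and 0.763 CPM, SKOV3_PAE 4.01, 1.68 and 2.10 CPM, SKOV3/DDP 1.67, 2.65 and 1.959 CPM, and SKOV3/DDP_PAE 0.981, 2.11 and 0.605 CPM. The untreated SKOV3 libraries were below all SKOV3_PAE and SKOV3/DDP libraries, and other groups overlapped. Its called log2 fold changes were 2.67 for PAE in SKOV3, 2.36 between the untreated lines and −3.42 for the difference of the PAE effect between the lines (adjusted p = 0.00183, 0.00411 and 0.00305, edgeR). None was called with the GC and length trend removed (0.60, 0.29 and −1.35), and without SKOV3 replicate 3 they were 3.53, 3.22 and −4.28. The third was −4.02 without SKOV3/DDP_PAE replicate 2. After PAE the lines differed by −1.06 (adjusted p = 0.127), which was called without SKOV3/DDP_PAE replicate 2 (−1.69).

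ABCC4 (MRP4) and ABCC5 (MRP5) export cyclic nucleotides and nucleotide analogues. ABCC4 (Gene ID 10257, chr13:95019835-95301451, minus strand) was higher in untreated SKOV3/DDP. Its levels were 3.81, 0.256 and 2.37 CPM in SKOV3, from 43, 3 and 28 counts, and 16.8, 13.001 and 16.8 CPM in SKOV3_PAE. SKOV3/DDP had 50.3, 52.7 and 36.5 CPM, and SKOV3/DDP_PAE 23.7, 22.9 and 44.8 CPM. Only the 2 SKOV3/DDP groups overlapped. The untreated lines differed by a log2 fold change of 4.44 (SE 0.54, adjusted p = 2.05e-06), and 1.95 (adjusted p = 5.78e-04) with the GC and length trend removed.

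For PAE in SKOV3, ABCC4 gave 2.86 (SE 0.52, adjusted p = 1.37e-04), close to the median of 2.66 of genes of like GC content, and 0.33 (adjusted p = 0.525) with the trend removed. For PAE in SKOV3/DDP it gave −0.61 (95% interval −1.49 to 0.27, adjusted p = 0.342). The difference of the PAE effect, −3.47 (adjusted p = 4.12e-04), became −1.08 (adjusted p = 0.118) with the trend removed. After PAE the lines differed by 0.97 (SE 0.45, adjusted p = 0.0838), which was called in 4 alternatives, at 0.88 to 0.98. Without SKOV3 replicate 1, the called values of 4.44, 2.86 and −3.47 became 5.13, 3.55 and −4.16.

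ABCC5 (Gene ID 10057, chr3:183919934-184018010, minus strand) was the one transporter that rose under PAE in both lines. It had 23.3, 13.9 and 20.3 CPM in SKOV3 and 32.5, 33.8 and 44.99 CPM in SKOV3_PAE. It had 26.2, 33.0 and 27.1 CPM in SKOV3/DDP and 68.5, 78.5 and 48.1 CPM in SKOV3/DDP_PAE. Within each line all PAE libraries lay above all untreated ones. PAE raised it by 1.18 on the log2 scale in SKOV3/DDP (SE 0.25, adjusted p = 0.00373), or 2.26-fold, and by 1.23 with the GC and length trend removed. In SKOV3 the rise was 0.95 (SE 0.25, adjusted p = 0.00286), or 1.94-fold, and 0.45 (adjusted p = 0.154) with the trend removed.

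The PAE effect on ABCC5 in SKOV3/DDP minus that in SKOV3 was 0.22 and not called (95% interval −0.46 to 0.91, adjusted p = 0.608), and it was −0.47 with library size alone. After PAE it was higher in SKOV3/DDP by 0.81 (SE 0.25, adjusted p = 0.0117), a call lost without SKOV3_PAE replicate 1 (0.71) or SKOV3/DDP_PAE replicate 2 (0.65). The untreated lines differed by 0.59 (adjusted p = 0.0408). This call was lost without SKOV3 replicate 2 or 3 or without any 1 of the 3 SKOV3/DDP libraries (0.40 to 0.63), and the value was −0.06 with the trend removed.

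ABCC6 (MRP6), mutated in pseudoxanthoma elasticum, and ABCC10 (MRP7), which carries taxanes, close the list. ABCC6 (Gene ID 368, chr16:16149565-16223617, minus strand) had only 70 counts: 3 in SKOV3, 3 in SKOV3_PAE, 48 in SKOV3/DDP and 16 in SKOV3/DDP_PAE. Untreated SKOV3/DDP exceeded SKOV3 by a ratio of 11.2 (95% counting interval 3.63 to 56.5, adjusted p = 0.00293, edgeR), and the call held with the GC and length trend removed. Its fitted log2 value went from 3.39 to 4.27 without SKOV3 replicate 3. In SKOV3/DDP, all PAE libraries (3, 7 and 6 counts) were below all untreated ones (13, 19 and 16 counts), with a log2 fold change of −1.83 (adjusted p = 0.0689, edgeR), which was called in limma-voom (adjusted p = 0.0379) and in a fit of those 6 libraries alone (adjusted p = 0.0218). After PAE the ratio was 4.98 (95% counting interval 1.43 to 26.7) and was not called (adjusted p = 0.0687), although it was without SKOV3_PAE replicate 2, which held all 3 SKOV3_PAE counts. ABCC6P1, a near-identical pseudogene copy, had 11, 89, 3 and 0 counts in the same order of groups, so the 2 copies ranked differently over the groups. How reads were split between them is not given, and ABCC6 values are uncertain.

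ABCC10 (Gene ID 89845, chr6:43427538-43451994, plus strand) fell under PAE in SKOV3, with no called change in SKOV3/DDP. SKOV3 had 45.05, 54.2 and 47.1 CPM and SKOV3_PAE 8.42, 12.5 and 7.21 CPM. SKOV3/DDP had 21.9, 22.0 and 24.3 CPM and SKOV3/DDP_PAE 23.1, 25.3 and 23.6 CPM. Untreated SKOV3 was the highest group and SKOV3_PAE the lowest, and the SKOV3/DDP groups overlapped between them. PAE in SKOV3 gave −2.38 on the log2 scale (SE 0.23, adjusted p = 2.32e-07), a 5.19-fold drop, and −0.89 (adjusted p = 0.00164) with the GC and length trend removed. PAE in SKOV3/DDP gave 0.08 (95% interval −0.36 to 0.51). The effect differed between the lines by 2.45 (SE 0.32, adjusted p = 9.04e-06), and by 1.19 (adjusted p = 0.00286) with the trend removed. After PAE, ABCC10 was higher in SKOV3/DDP by 1.35 (SE 0.23, adjusted p = 1.44e-04). In the untreated lines its log2 fold change was −1.10 (adjusted p = 3.13e-04), which turned to 0.13 (adjusted p = 0.548) with the trend removed and was −0.41 (adjusted p = 0.114) with library size alone. DLK2, on the opposite strand of the same locus, held 268 counts against 4792 for ABCC10.

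**Figure D4:**
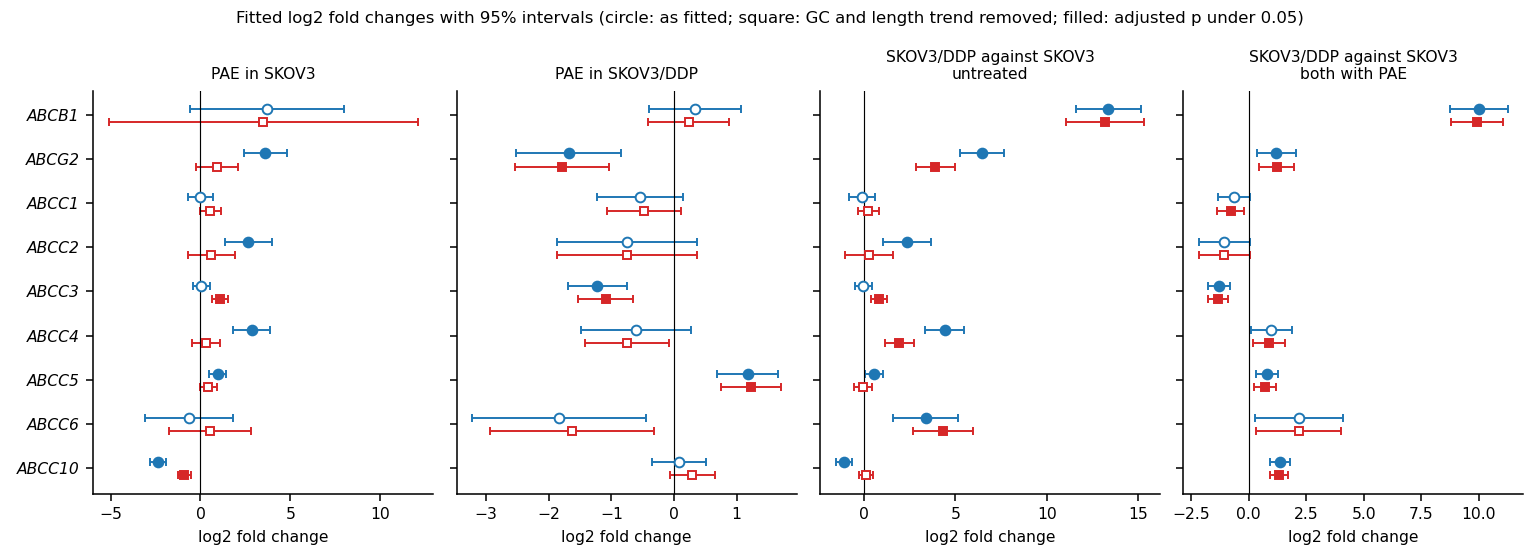
Fitted log2 fold changes with 95% intervals of the 9 tested transporters in 4 comparisons, each panel on its own axis (n = 3 libraries per group). Circles are the values as fitted, squares those with the GC and length trend removed, and filled symbols have an adjusted p under 0.05. For PAE in SKOV3 5 circles but 2 squares are filled, while in SKOV3/DDP the same 3 genes, ABCG2, ABCC3 and ABCC5, are filled in both. The share of all genes called with the trend removed is not reported here.

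Of 12 listed neighbours of ABCB1 on chromosome 7, 10 were tested. In untreated SKOV3/DDP 4 were higher and 5 lower than in SKOV3, beside 45.8% and 36.0% of all genes, and after PAE 0 were higher and 6 lower, beside 27.5% and 27.1%. PAE called 8 higher and 2 lower in SKOV3 (42.6% and 32.7% of all genes) and 2 higher in SKOV3/DDP (11.8%). CROT, 103.2 kb from ABCB1, had 168 and 1409 counts in SKOV3 and SKOV3_PAE against 1 and 0 in SKOV3/DDP and SKOV3/DDP_PAE. STEAP4, a metalloreductase gene 557.6 kb away, had 374 and 21023 counts against 0 and 1. These 2 genes lay on either side of ABCB1 and were at or near 0 where ABCB1 was present.

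DMTF1, a MYB-like transcription factor gene 306.7 kb away, was detected in all groups, at 6.22 ± 0.907, 79.3 ± 6.82, 69.6 ± 10.1 and 109 ± 10.9 CPM in SKOV3, SKOV3_PAE, SKOV3/DDP and SKOV3/DDP_PAE. DBF4, an activator of a replication kinase, had 4.76 ± 1.51, 61.6 ± 11.02, 29.2 ± 6.67 and 46.8 ± 7.94 CPM. DMTF1 and DBF4 differed between the untreated lines by 3.48 and 2.62 on the log2 scale. With the GC and length trend removed these were 0.84 and 0.15, the second not called (adjusted p = 0.527, edgeR). For PAE in SKOV3, DBF4 went from 3.69 to 0.97 with the trend removed. RUNDC3B, which overlaps ABCB1 on the opposite strand, held 25 counts over all libraries, against 9786 for ABCB1. Around ABCC1 and ABCC6 on chromosome 16, 10 of 11 listed neighbours were tested, with 3 higher and 4 lower between the untreated lines, 4 lower after PAE, 4 higher and 1 lower for PAE in SKOV3, and 0 called for PAE in SKOV3/DDP, where 81.8%, 54.5%, 75.3% and 26.4% of all genes were called in either direction. PDXDC1 and CEP20 rose with PAE in SKOV3 (1.77 and 3.49 on the log2 scale), at 0.03 and 0.46 with the GC and length trend removed.

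**Figure D5:**
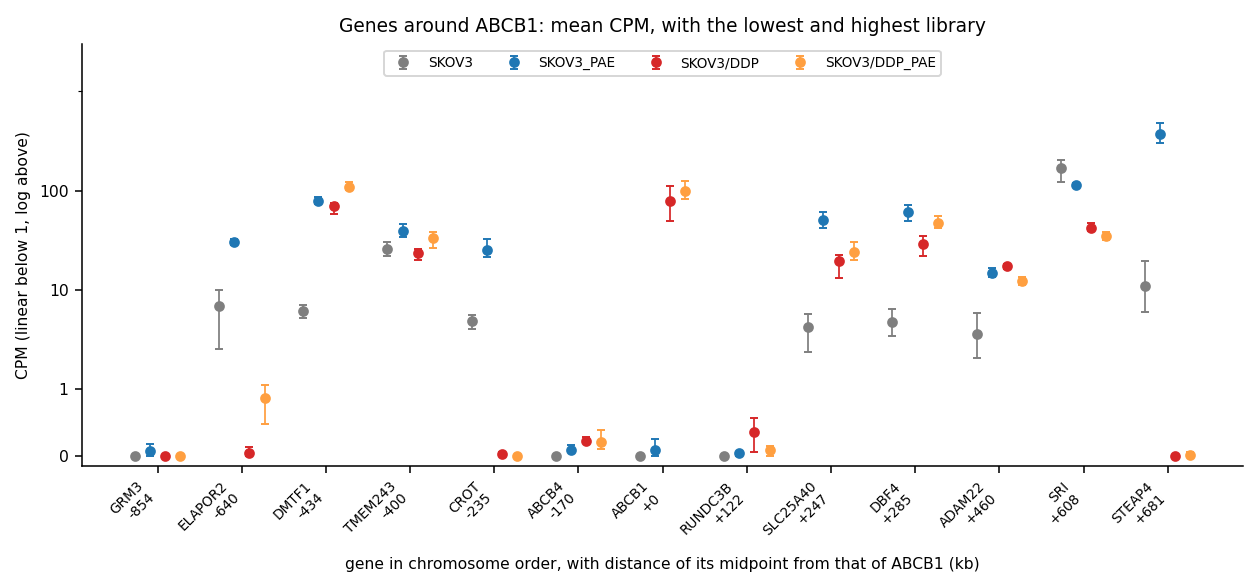
Mean CPM (points) with the lowest and highest library (lines, n = 3) of ABCB1, ABCB4 and 11 of the neighbouring genes in chromosome order, with the distance of each gene's midpoint from that of ABCB1 in kb; the axis is linear below 1 CPM and logarithmic above. ABCB1 is at 79.0 and 99.6 CPM in the 2 SKOV3/DDP groups, where CROT and STEAP4 are at or near 0.

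Among the other ABC transporters, 21 of 34 listed genes were tested. In untreated SKOV3/DDP 7 were higher and 10 lower, and after PAE 6 were higher and 7 lower, beside 81.8% and 54.5% of all genes called. ABCG1 and ABCA1, which export cellular cholesterol, were lower in SKOV3/DDP. ABCG1 had 146 ± 33.2 CPM in SKOV3 and 69.2 ± 9.51 CPM in SKOV3_PAE, against 0.248 ± 0.278 and 0.682 ± 0.352 CPM in SKOV3/DDP and SKOV3/DDP_PAE, and ABCA1 had 7.05 ± 2.61 and 61.8 ± 7.51 CPM against 1.10 ± 0.762 and 1.53 ± 0.141 CPM. Each was called in both comparisons of the lines (log2 fold changes −9.19 and −6.66 for ABCG1, −2.67 and −5.32 for ABCA1, untreated and with PAE), also with the GC and length trend removed. ABCB9, a lysosomal peptide transporter, was higher in SKOV3/DDP_PAE than in SKOV3_PAE (17.9 ± 1.89 against 2.81 ± 0.876 CPM, log2 fold change 2.67), as was ABCA3, a lipid transporter (71.3 ± 13.05 against 24.8 ± 8.02 CPM, 1.52). Between the untreated lines, ABCB9 was instead lower in SKOV3/DDP (9.10 ± 2.39 against 19.9 ± 1.68 CPM, −1.13), and ABCA3 was not called (0.35). With the trend removed these were 0.37, not called, and 1.80, called.

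PAE called 20 of these 21 in SKOV3 (10 higher and 10 lower) and 7 in SKOV3/DDP (4 higher and 3 lower), beside 75.3% and 26.4% of all genes. With the GC and length trend removed, only ABCA1, ABCA5, ABCB8, ABCB9, ABCD4 and ABCG1 kept a call in SKOV3. ABCA5, a lysosomal lipid transporter, rose in both lines, from 1.21 ± 0.221 to 54.3 ± 3.56 CPM in SKOV3 and from 10.6 ± 2.32 to 24.9 ± 10.03 CPM in SKOV3/DDP, and kept its call in both with the trend removed (1.86 and 0.95 on the log2 scale). Of the ABC proteins without a membrane domain, which act in translation, 3 of 4 were tested and none was called for PAE in SKOV3/DDP or between the lines after PAE. ABCF3 and ABCF2 were lower and ABCE1 higher in untreated SKOV3/DDP (−2.41, −0.77 and 3.83 on the log2 scale). With the trend removed these were −0.72, −0.62 and 1.19.

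Of 20 listed regulators of efflux genes, 17 were tested. The untreated comparison of the lines called 10 higher and 4 lower, and for PAE in SKOV3 11 were higher and 4 lower, beside 81.8% and 75.3% of all genes called. After PAE 3 were higher and 4 lower between the lines, and for PAE in SKOV3/DDP 4 were higher and 1 lower, beside 54.5% and 26.4% of all genes. NR1I2, the pregnane X receptor that induces ABCB1 in liver and gut, had 0, 1, 1 and 1 counts in the 4 groups (it falls outside the naming rule and was picked once its counts were known). FOXO1, a forkhead factor, was higher in SKOV3/DDP, at 65.7 ± 14.4 against 1.22 ± 0.827 CPM untreated (log2 fold change 5.75, 3.91 with the trend removed) and at 43.7 ± 15.8 against 7.45 ± 3.07 CPM after PAE (2.55). KEAP1, which holds the antioxidant factor NFE2L2 in check, was lower in SKOV3/DDP, at 48.6 ± 6.91 against 1279 ± 68.0 CPM untreated and 61.5 ± 7.51 against 213 ± 41.0 CPM after PAE. Both log2 fold changes, −4.72 and −1.79, stayed called with the trend removed (−2.75 and −1.72).

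HIF1A, the hypoxia factor, was lower in SKOV3/DDP_PAE than in SKOV3_PAE (55.5 ± 24.8 against 402 ± 12.9 CPM, −2.86), and PPARA, a lipid-sensing receptor, was higher (68.4 ± 30.7 against 20.2 ± 2.88 CPM, 1.76). In SKOV3/DDP, PAE raised CEBPB from 63.5 ± 41.7 to 177 ± 53.1 CPM (1.48, adjusted p = 0.0109) and FOXO3 from 34.96 ± 1.66 to 68.4 ± 13.2 CPM (0.97, adjusted p = 0.0260), a call lost without SKOV3/DDP replicate 1 (0.98) or 3 (0.98) or SKOV3/DDP_PAE replicate 3 (0.84). It lowered RXRA, the partner of many nuclear receptors, from 104 ± 8.90 to 60.6 ± 9.99 CPM (−0.78, adjusted p = 0.0145, edgeR), a call lost without SKOV3/DDP replicate 1 (−0.68) or SKOV3/DDP_PAE replicate 2 (−0.62). EGR1, an immediate early gene, was higher in untreated SKOV3/DDP (348 ± 338 CPM) than in SKOV3 (10.8 ± 1.20 CPM). The SKOV3/DDP libraries had 192, 735 and 116 CPM, and the mean without replicate 2 was 154 CPM.

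The scaffold proteins that tether ABC pumps to the membrane skeleton included 1 gene that was nearly lost in SKOV3/DDP. MSN (moesin), a linker of membrane proteins to actin, had 715 ± 230 CPM in SKOV3 and 666 ± 182 CPM in SKOV3_PAE, against 0.302 ± 0.120 and 0.137 ± 0.0716 CPM in SKOV3/DDP and SKOV3/DDP_PAE (log2 fold changes −11.17 untreated and −12.20 after PAE). All 10 scaffold genes of the list were tested, with 4 higher and 4 lower in the untreated comparison of the lines and again 4 and 4 after PAE, beside 81.8% and 54.5% of all genes called. PAE in SKOV3/DDP called 1 higher and 2 lower, beside 26.4%. Of these, CAV1 (caveolin-1) fell from 23.8 ± 4.07 to 3.74 ± 0.267 CPM (−2.67, adjusted p = 2.64e-05), and RAB11A, which recycles membrane proteins, from 229 ± 27.1 to 157 ± 12.97 CPM (−0.55, adjusted p = 0.0322, edgeR). The call of RAB11A held only without SKOV3/DDP replicate 2, and was lost without any 1 of the other 5 libraries of that comparison (−0.59 to −0.47).

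Outside the ABC family, 5 of 6 listed efflux and sequestration genes were tested. In untreated SKOV3/DDP 2 were higher and 3 lower, and after PAE 3 were lower, beside 81.8% and 54.5% of all genes called. TMEM205, a membrane protein linked to platinum resistance, was lower in SKOV3/DDP, at 28.1 ± 3.15 against 786 ± 117 CPM untreated and 18.1 ± 0.748 against 95.6 ± 13.9 CPM after PAE. PAE called 3 of the 5 lower in SKOV3/DDP, beside 14.7% of all genes. MVP, the major vault protein, fell from 99.2 ± 21.8 to 34.5 ± 5.30 CPM (−1.52, adjusted p = 7.29e-04), and LAPTM4B from 84.3 ± 17.7 to 46.9 ± 18.7 CPM (−0.85, adjusted p = 0.0374, edgeR). The call of LAPTM4B was lost without SKOV3/DDP replicate 1 or 3 or SKOV3/DDP_PAE replicate 1 or 2 (−0.89 to −0.63).

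Glutathione supplies the conjugates and the co-substrate that ABCC pumps export. All 7 listed genes were tested. Between the untreated lines 4 were higher and 2 lower, and after PAE 2 were higher and 1 lower in SKOV3/DDP, beside the 81.8% and 54.5% of all genes called. GSS, glutathione synthetase, fell with PAE in SKOV3/DDP from 61.4 ± 3.96 to 29.05 ± 5.34 CPM (−1.08, adjusted p = 0.00210), and was lower there than in SKOV3_PAE (85.2 ± 14.9 CPM, −1.55). GSR, glutathione reductase, was higher in SKOV3/DDP_PAE than in SKOV3_PAE (177 ± 32.2 against 56.0 ± 6.85 CPM, 1.66). GCLC, the catalytic subunit of the rate-limiting ligase, and SLC7A11, the cystine importer, were called higher in untreated SKOV3/DDP (131 ± 147 and 343 ± 484 CPM), but 1 library set both means. GCLC had 46.7, 300.2 and 45.3 CPM and SLC7A11 57.0, 902 and 70.9 CPM in replicates 1 to 3, so that the means without replicate 2 were 46.005 and 63.9 CPM. Without it the log2 fold change of SLC7A11 against SKOV3 went from 5.43 to 3.02 and stayed called. Over all libraries, removing the GC and length trend moved SLC7A11 to 2.22 and GCLC from 4.75 to 2.87, both still called.

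Over the 12 libraries, the genes closest to each transporter were found by the root mean square difference of log2(CPM + 1) around each gene's own mean. Closest to ABCB1 were GULP1 (0.338), LRIF1 (0.350) and ZNF320 (0.363), which were likewise at or near 0 in SKOV3 and SKOV3_PAE and at 57.2 and 93.3, 59.2 and 66.4, and 61.0 and 74.2 CPM in SKOV3/DDP and SKOV3/DDP_PAE. Within 1 unit of ABCB1 lay 0.473% of genes. Closest to ABCG2 were SERPINB1 (0.290), MSI2 (0.381) and LINC02086 (0.389), and 13.4% of genes lay within 1 unit. SERPINB1, a serpin of neutrophil proteases, had 21.8, 54.6, 411 and 98.9 CPM in SKOV3, SKOV3_PAE, SKOV3/DDP and SKOV3/DDP_PAE. For ABCC4 they were LRBA, SPG11 and TM9SF2 (0.258 to 0.269), and TM9SF2 lies on chromosome 13 as ABCC4 does. For ABCC10 they were NAT9, SLC6A8 and TMEM259 (0.173 to 0.179), for ABCC3 MX1, SERPINB6 and C17orf100 (0.228 to 0.291) and for ABCC5 LEAP2, ANKRD11P2 and PROX2 (0.198 to 0.219). For ABCC1 and ABCC2, 48.7% and 49.3% of genes lay within 1 unit, and the low counts of ABCC2 keep its differences small on this scale. The closest were SEPTIN3, KIAA1549 and BAZ2A for ABCC1 (0.246 to 0.284) and HMGN1P3, SRSF2 and RPS10P7 for ABCC2 (0.237 to 0.291). The points of this measure share their libraries, depth and GC pattern.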

How the data were processed

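RNA was sequenced in 12 poly(A)-selected NEBNext Ultra libraries (2 lines, with or without PAE, 3 libraries each), a kit that does not mark strand. The authors deposited raw read counts per gene for each library, with NCBI Gene IDs and GRCh38 coordinates per the file headers. Per the submitters' processing notes, HISAT2 2.0.5, StringTie 1.3.3b, DESeq2 and edgeR were used; the counting program and strand setting are not given in the sources used here. Groups came from the sample titles and labels, and library totals were 14610008 to 18263479 counts. The design text speaks of biological and experimental triplicates and does not tie libraries to cultures, so p-values measure only the spread between these libraries.

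Of 47219 loci, 869 without a gene name were left out (0.126% to 0.678% of counts), and 46350 were kept. Genes were filtered with edgeR's filterByExpr (minimum count 10), scaled with TMM factors and fitted over all 12 libraries and 4 groups with the quasi-likelihood test (R 4.3.3, edgeR 4.0.16), 2-sided, with Benjamini-Hochberg adjustment over 17133 genes at 0.05. SE is the absolute log2 fold change over the square root of F, and 95% intervals are 1.96 SE. A group without counts was set to a floor of 3 counts over its libraries. Counting intervals cover counting error only, and floors only that of the group without counts. GC content came from the longest GENCODE 29 transcript, found for 91.5% of tested genes, and the trend on GC and length was a spline with 5 degrees of freedom. Levels of different genes were compared per kb of the gene length in the files.

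Genes beyond the 10 transporters were named by rule: per list, comparison and direction, at most 2 called genes with the largest change, the higher mean reaching 5 CPM, and libraries of the groups apart. Members and lists were chosen with earlier results of these data known. Same-numbered libraries did not deviate together (correlations −0.329 to 0.217), so replicate numbers were not used as a block. The alternatives were DESeq2 1.42.0, limma-voom 3.58.1, other filters and scalings, the replicate block, fits of 6 libraries and leaving out each library. The test was checked on simulated data. Some values of the marker and gene lists are not reported here.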

Additional observations from a re-analysis of the deposited data

Results flagged for a closer look

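The effect of PAE differed between SKOV3/DDP and SKOV3 for 5 transporters, by the interaction term of the edgeR fit (3 libraries per group, adjusted p under 0.05 for each). The differences on the log2 scale, SKOV3/DDP minus SKOV3, were −5.28 for ABCG2, −3.42 for ABCC2, −1.26 for ABCC3, −3.47 for ABCC4 and 2.45 for ABCC10. With the GC and length trend removed, ABCG2 (−2.70, adjusted p = 0.00710), ABCC3 (−2.16, adjusted p = 1.44e-04) and ABCC10 (1.19, adjusted p = 0.00286) kept their calls. ABCC2 (−1.35, adjusted p = 0.239) and ABCC4 (−1.08, adjusted p = 0.118) lost theirs. All 5 differences include the untreated SKOV3 libraries, and the part of the GC pattern in the 3 that kept their calls was not tested further. Of these genes, ABCG2 and ABCC3 were also called for PAE in SKOV3/DDP alone, where no SKOV3 library enters the contrast.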

How the results depend on the processing

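Counts of transporters called moved with the GC correction and with the set of genes kept. Requiring at least 10 counts in every library keeps only ABCC1, ABCC3, ABCC5 and ABCC10. It gave 2 calls each for PAE in SKOV3, between the untreated lines and for the difference of the PAE effect. Between the lines with PAE it gave 3. Of these same genes the main fit called as many in each of these comparisons, so the filter lowered the counts through the genes it left out. Removing the GC and length trend gave 2 calls for PAE in SKOV3 and 3 for the difference of the PAE effect, and the replicate block with the trend removed gave the same 2 and 3. Shares of all genes called in these fits are not reported here. The study's thresholds, set on unadjusted edgeR p-values, gave 0 calls for PAE in SKOV3/DDP and 2 between the lines with PAE. Leaving out 1 library at a time gave 3 to 6 calls between the lines with PAE, 3 of them without SKOV3_PAE replicate 1 and 6 without SKOV3/DDP_PAE replicate 3, and 6 to 7 between the untreated lines.

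Directions turned mostly for values that were not called. With the trend removed, log2 fold changes turned to 0.55 (ABCC1) and 0.53 (ABCC6) for PAE in SKOV3, and between the untreated lines to 0.25 (ABCC1), 0.82 (ABCC3), −0.056 (ABCC5) and 0.13 (ABCC10). With the replicate block added, these were 0.60, 0.37, 0.28, 0.78, −0.067 and 0.15. With library size alone they were 0.86 (ABCC1) and 0.16 (ABCC6) for PAE in SKOV3, 0.60 (ABCC1) and 0.63 (ABCC3) between the untreated lines, and −0.47 (ABCC5) for the difference of the PAE effect. For PAE in SKOV3, ABCC1 was 0.041 without the filter, 0.034 with limma-voom and 0.068 with the replicate block, and ABCC3 was −0.21 with DESeq2 and −0.067 with the 6 libraries compared. The block alone lost 1 call, ABCC5 between the untreated lines (0.59). The causes were not tested. Leaving out 1 library gave ranges across 0 for ABCC1 (−0.24 to 0.30) and ABCC3 (−0.031 to 0.095) and ABCC6 (−3.63 to 0.25) for PAE in SKOV3, for ABCC1 (−0.46 to 0.22) and ABCC3 (−0.37 to 0.12) between the untreated lines and for ABCC6 (−2.08 to 1.83) in the difference of the PAE effect. ABCB1 has no value for PAE in SKOV3 or for the difference without SKOV3_PAE replicate 2, since no count remains. Low counts limit ABCB4, ABCC6 and untreated SKOV3 values of ABCB1, ABCG2 and ABCC2.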
